A study of Bos taurus with 18 samples.

Results

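Bovine cumulus cells taken after 92 h without FSH were compared with those taken after 68 h, on 12 of the 18 dual-channel arrays of the series. Each array held RNA of 1 of these times in one channel and RNA of 20 h in the other. The members were chosen by label: the 6 arrays labelled with 92 h RNA and the 6 labelled with 68 h RNA, each group being 3 biological replicates hybridised in both dye orientations. The log2 ratio of coasted over 20 h was averaged over both orientations of a replicate, which gave 3 values a side, and the 68 h mean was subtracted from the 92 h mean. The 20 h RNA is therefore a bridge that should drop out of the difference only as far as it was alike on both sets of arrays.

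The animals were 6 cycling Holstein cows of 1 herd, 4 years old on average, and every cow passed through all coasting times in separate cycles. Treatment fell in the luteal phase, without hormonal synchronisation, after removal of the dominant follicle. Each cow received 6 injections of 40 mg of FSH (Folltropin-V) at 12 h intervals over 3 days, and FSH was then withheld, a period called coasting. The 92 h group came from follicles over 8 mm, the 68 h group from follicles of 6 to 8 mm and the 20 h RNA from follicles of 3 to 5 mm. Time without FSH and follicle size thus differ together between 92 h and 68 h and cannot be told apart. The labels do not say which cows, or how many, went into a replicate, so all p-values measure the spread between these RNA samples.

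Cumulus cells surround the oocyte in the antral follicle and feed it metabolites through thin projections and gap junctions. FSH keeps them dividing and sustains oestradiol and inhibin synthesis, and the LH surge later stops division and starts synthesis of a hyaluronan matrix, called expansion. Coasting starves growing follicles of FSH while LH pulses continue, so that follicles approach the preovulatory state without an LH surge. Per the labels, serum hormones pointed to basal LH.

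The 12 arrays and the 6 values made from them were not equally alike. Across genes, the ratios of a replicate's array and of its dye-swapped partner had a Pearson correlation of 0.52, 0.69 and 0.60 for replicates 1, 2 and 3 of 92 h and of 0.24, 0.56 and 0.31 for those of 68 h, and genes are not independent replicates. Of the 43794 gene probes, the coasted channel showed 48.4% ± 8.75 above background for 92 h and 53.7% ± 14.2 for 68 h (SD over 6 arrays), and the 20 h channel beside it 52.2% ± 10.1 and 59.2% ± 5.84. Of 11044 genes tested, 348 lay at least 1 log2 unit outside both other values in 68 h replicate 2, 268 in 92 h replicate 3 and 164 in 92 h replicate 2, against 53 in 68 h replicate 1, 32 in 92 h replicate 1 and 22 in 68 h replicate 3. The array of 68 h replicate 2 with coasted RNA in Cy5 had 26.5% of probes above background in its coasted channel. The other arrays of 68 h had from 52.0% to 66.2%. The 92 h arrays lay on other slides than the 68 h arrays, so slide and time cannot be told apart in any value below.

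The 20 h channels differed between replicates and did so in matched sets across the 2 times. For each gene the 20 h level of a replicate was set against the mean of its 3 replicates, and these deviations were correlated over the 11044 genes, which are not independent. They correlated with r = 0.79 between 92 h replicate 2 and 68 h replicate 1, r = 0.84 between 92 h replicate 3 and 68 h replicate 2 and r = 0.69 between 92 h replicate 1 and 68 h replicate 3. The other 6 pairings ranged from -0.71 to -0.30. The labels do not say whether any of these arrays held the same 20 h RNA, and no value was paired or crossed on this basis.

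Single genes show the pattern. RSAD2, an antiviral enzyme gene, had log2 intensities in the 20 h channel of 7.68, 13.03 and 7.71 on the 92 h arrays and 13.14, 7.84 and 7.66 on the 68 h arrays (replicates 1, 2 and 3, the order used throughout). ISG15, a ubiquitin-like modifier gene, read 7.91, 11.65 and 7.74 and 11.70, 7.89 and 7.84 in the same channels. In both genes the 20 h RNA of 92 h replicate 2 and of 68 h replicate 1 stood far above the others. The ratios followed: RSAD2 read 0.42, -3.49 and -0.00028 at 92 h and -5.01, 1.06 and 0.26 at 68 h over 20 h. TNPO1, a nuclear import receptor gene, was low in the 20 h channel of 92 h replicate 3 and 68 h replicate 2, with 11.66, 12.50 and 9.22 on the 92 h arrays and 12.58, 9.32 and 11.73 on the 68 h arrays. SIL1, an exchange factor gene of the endoplasmic reticulum, was high in the same 2 channels, with 9.83, 9.08 and 12.32 and 9.09, 12.32 and 9.74. These genes were picked after their values were seen, as the ones by which values stand apart.

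**Figure D1:**
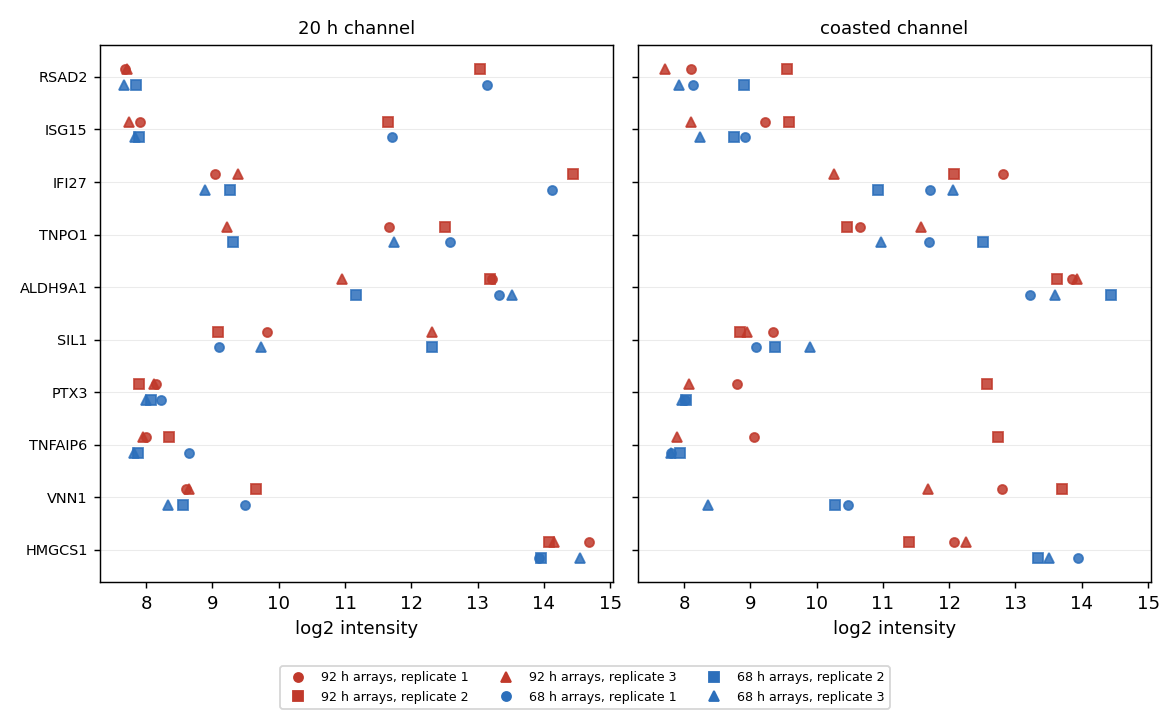
Log2 intensity of 10 genes in the 20 h channel (left) and in the coasted channel (right) of each replicate, with 92 h arrays in red and 68 h arrays in blue and a symbol per replicate. In the 20 h channel RSAD2 lies at 13.03 and 13.14 in 92 h replicate 2 and 68 h replicate 1 and between 7.66 and 7.84 in the rest, whereas for VNN1 and HMGCS1 the red and blue symbols part in the coasted channel.

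Through the 20 h bridge, no gene passed in a fit that pairs no arrays. Of 11044 genes tested with limma 0 had a Benjamini-Hochberg adjusted p under 0.05 (0%), and the smallest adjusted p was 0.642. An unadjusted p under 0.05 was reached by 428 genes higher at 92 h (3.88%) and 228 lower (2.06%). With median centring in place of loess the split was 163 higher and 283 lower. The 3 values of 92 h lay wholly above the 3 of 68 h in 905 genes (8.19%) and wholly below in 782 (7.08%), and 5715 genes (51.7%) had a difference below 0. The median difference over all genes was -0.0040. Without 92 h replicate 3 a single gene passed, TMSB4X, an actin-sequestering thymosin, with a difference of 2.31 (limma adjusted p = 0.0201). Over all values TMSB4X read 1.87, 2.17 and 0.40 at 92 h and -0.17, -0.21 and -0.50 at 68 h, and its difference was 1.77 ± 0.42 (SE; limma adjusted p = 0.647).

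The 24 genes described next are the 12 of smallest p in each direction whose values at 92 h and 68 h do not overlap. None passed: every one had an adjusted p of 0.642 by limma, with unadjusted p from 0.000219 to 0.00157. Differences are on the log2 scale with the standard error of the fit. In bulk RNA such as this, fewer cells of a type and less RNA per cell cannot be told apart.

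Among the higher ones, DDO, a peroxisomal oxidase of D-aspartate, had the largest difference. DDO read 1.31, 1.70 and 1.61 at 92 h and 0.38, 0.63 and -0.16 at 68 h, a difference of 1.26 ± 0.20, while the mean at 44 h was 0.045. All 3 values at 92 h stood well above the highest at 68 h. PAM, the enzyme that amidates peptide hormones, read 0.67, 0.61 and 0.0072 at 92 h and -0.67, -0.70 and -0.76 at 68 h (1.14 ± 0.20). Its 68 h values were tightly grouped below 0, and the lowest 92 h value was near 0. MYH11, a smooth muscle myosin heavy chain, read 1.83, 1.49 and 1.10 at 92 h and 0.54, 0.48 and 0.28 at 68 h (1.04 ± 0.18) and its probe cleared background on 6 arrays of 92 h and 5 of 68 h.

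The next higher genes had smaller differences and narrow spread. KANSL2, a subunit of a histone acetyltransferase complex, read 0.42, 0.55 and 0.35 at 92 h and -0.27, -0.10 and -0.53 at 68 h (0.74 ± 0.12). METAP1, a methionine aminopeptidase that trims nascent proteins, read 0.53, 0.66 and 0.89 at 92 h and 0.17, 0.10 and -0.18 at 68 h (0.66 ± 0.13). SNU13, a protein of the spliceosome and of small nucleolar RNPs, had the smallest p of the higher genes. SNU13 read 0.35, 0.44 and 0.37 at 92 h and -0.075, -0.16 and -0.26 at 68 h, but a second probe of the gene gave a difference of -0.15. IGFBP7, an IGF-binding protein of the extracellular space, read 0.43, 0.37 and 0.32 at 92 h and -0.10, 0.029 and -0.0034 at 68 h (0.40 ± 0.073). IL6ST, the signalling receptor shared by the interleukin-6 family, read 0.20, 0.33 and 0.28 at 92 h and -0.018, -0.016 and -0.043 at 68 h (0.29 ± 0.057), and FANK1 read 0.37, 0.38 and 0.31 at 92 h and 0.10, 0.14 and 0.10 at 68 h (0.24 ± 0.047).

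For 3 of the 12 higher genes the difference lay in the 20 h channels. HOXB2, a homeobox gene, differed by 0.35 through 20 h, by -0.067 between the coasted channels and by -0.41 between the 20 h channels. TMPRSS3, a membrane serine protease gene, gave 0.36, -0.022 and -0.38 in the same order. LOC100298830 gave 0.26, -0.056 and -0.32. In the other 9 the coasted channels differed in the same direction without overlap.

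Among the lower ones, HMGCS1, which makes HMG-CoA at the head of sterol synthesis, stood far out. HMGCS1 read -2.61, -2.68 and -1.89 at 92 h and 0.014, -0.62 and -1.04 at 68 h, a difference of -1.84 ± 0.37. Every 92 h value lay below the lowest 68 h value, and the 44 h mean was -0.039. Its other probes gave -0.56 and -0.49. ANAPC13, a subunit of the anaphase-promoting complex, read -0.40, -0.53 and -0.30 at 92 h and 0.46, 0.24 and 0.46 at 68 h (-0.79 ± 0.13). Its values were below 0 at 92 h and above 0 at 68 h. LOC783399 read 0.28, -0.20 and 0.14 at 92 h and 0.77, 0.89 and 1.0 at 68 h (-0.81 ± 0.14), but its coasted channels overlapped widely (10.71, 9.23 and 11.94 at 92 h and 9.97, 12.53 and 11.40 at 68 h).

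PDHB, a subunit of pyruvate dehydrogenase, read -0.44, -0.49 and -0.43 at 92 h and -0.094, -0.15 and -0.12 at 68 h (-0.33 ± 0.048) with the smallest p of all genes. The difference was 0.18 between its 20 h channels and -0.15 between the coasted ones. CS, the citrate synthase of the citric acid cycle, read -0.16, -0.23 and -0.070 at 92 h and 0.15, 0.34 and 0.29 at 68 h (-0.41 ± 0.070). PSMA6, a proteasome core subunit, read -0.36, -0.50 and -0.35 at 92 h and -0.043, 0.023 and 0.015 at 68 h (-0.40 ± 0.070). AADAT, an aminoadipate aminotransferase of mitochondria, read -0.60, -0.58 and -0.50 at 92 h and -0.052, -0.24 and -0.024 at 68 h (-0.45 ± 0.092). These genes were each lower at 92 h in all values, by less than 0.5 on the log2 scale.

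CLIC4, an intracellular chloride channel family member, read -0.73, -0.75 and -1.05 at 92 h and -0.17, -0.34 and -0.13 at 68 h (-0.63 ± 0.12). ARL6IP6 read -0.31, -0.25 and -0.089 at 92 h and 0.19, 0.20 and 0.25 at 68 h (-0.43 ± 0.081), ALKBH3, a nucleic acid demethylase, -0.58, -0.58 and -0.63 at 92 h and -0.11, -0.34 and -0.13 at 68 h (-0.40 ± 0.072), and ZDHHC21, a palmitoyltransferase, -0.59, -0.71 and -0.79 at 92 h and -0.17, -0.36 and -0.26 at 68 h (-0.44 ± 0.080). CCDC107 read -0.48, -0.39 and -0.16 at 92 h and 0.49, 0.13 and 0.35 at 68 h (-0.67 ± 0.13). In all 12 lower genes the coasted channels differed in the same direction, and in 8 of the 12 they did not overlap.

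**Figure D2:**
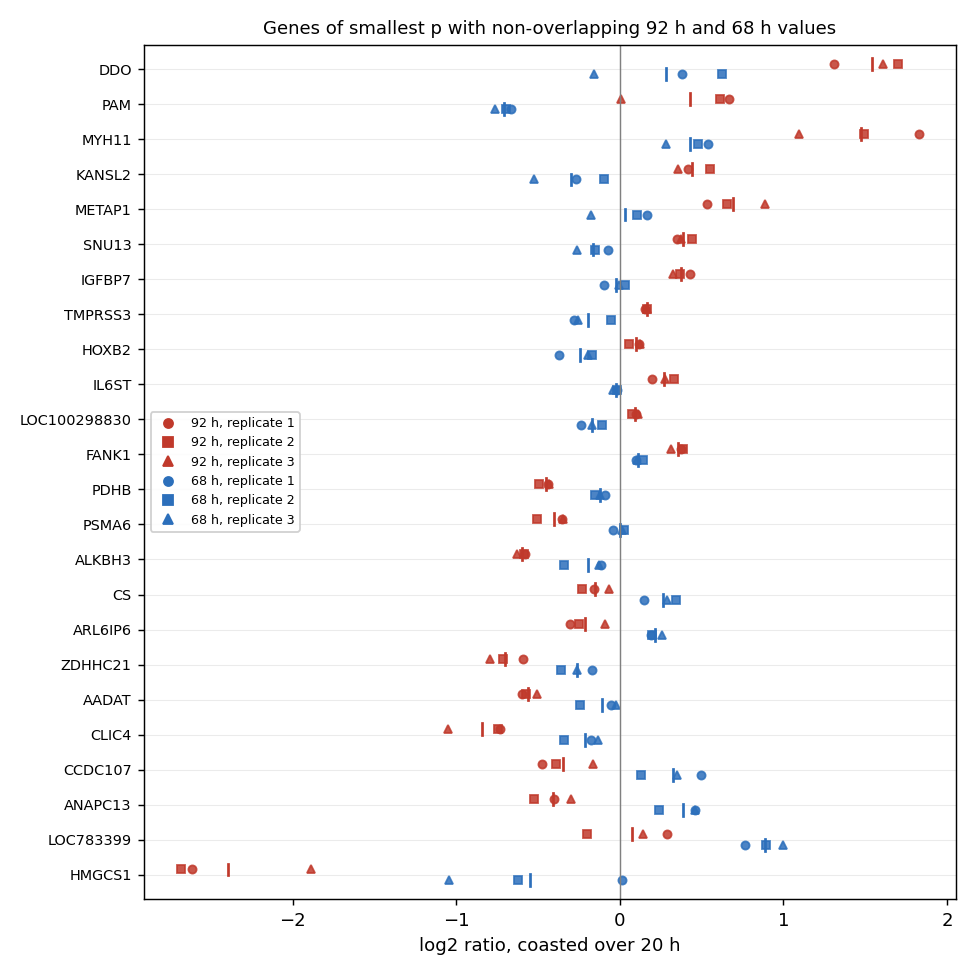
Log2 ratio of coasted over 20 h in each replicate of 92 h (red) and 68 h (blue) for the 24 genes of smallest p with non-overlapping values, with a bar at each mean of 3. HMGCS1 spans the widest gap, from -2.68 at 92 h to 0.014 at 68 h, and most other genes differ by less than 1.

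The same question was asked without the bridge, by comparing the 92 h channel with the 68 h channel. Before this, the mean log2 intensity of both channels was brought to a common distribution across arrays, with the ratios left as they were. Between these coasted channels 111 genes passed in limma at an adjusted p under 0.05. Of these 65 rose from 68 h to 92 h (0.589% of 11044) and 46 fell (0.417%), and 16 of the risen and 12 of the fallen changed at least 2-fold. The median standard error was 0.0932 against 0.167 through 20 h. These 2 errors are not alike, since the fit through 20 h also takes its spread from the 44 h values and the channel fit does not. With the 6 values of 92 h and 68 h alone, 1149 genes had an unadjusted p under 0.05 through 20 h, against 656, and 0 passed. All 111 had the same sign through 20 h, where 73 had non-overlapping values and 54 an unadjusted p under 0.05, in values that share the coasted channels. The call rests on few samples: 0 genes passed without 92 h replicate 1 or without 68 h replicate 1, 1 without 92 h replicate 2, 12 without 68 h replicate 3 and 5 with median centring (1 higher, 4 lower).

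Some of these calls moved together with the 20 h RNA of the same arrays. Between the 20 h channels of the 92 h and 68 h arrays 6 genes passed (0.0543%), and all 6 were lower on the 92 h arrays. IFRD2, a translational regulator gene, had 20 h levels of 8.44, 8.26 and 8.44 on the 92 h arrays and 10.47, 10.51 and 10.65 on the 68 h arrays, and coasted levels of 8.20, 8.29 and 8.26 at 92 h and 10.55, 10.50 and 11.05 at 68 h. Its ratio over 20 h differed by only -0.29 ± 0.26. DYM and GOLGA7B behaved alike, with 20 h differences of -2.09 and -1.42 and ratio differences of -0.062 and -0.22. The remaining 3 were DNAJB1, a heat shock co-chaperone (-1.41), BARX2, a homeobox gene (-0.94), and PHF12 (-0.85). In 7 of the 111 coasted calls the 20 h difference exceeded 50% of the coasted one in the same direction, among them SYNPO2, TERF2 and DUT. For SYNPO2, TERF2 and DUT the 20 h difference did not pass (limma adjusted p = 0.244, 0.873 and 0.333). Coasting time is the same in all 20 h channels, and a difference of the 20 h RNA and one of the slides cannot be told apart there.

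**Figure D3:**
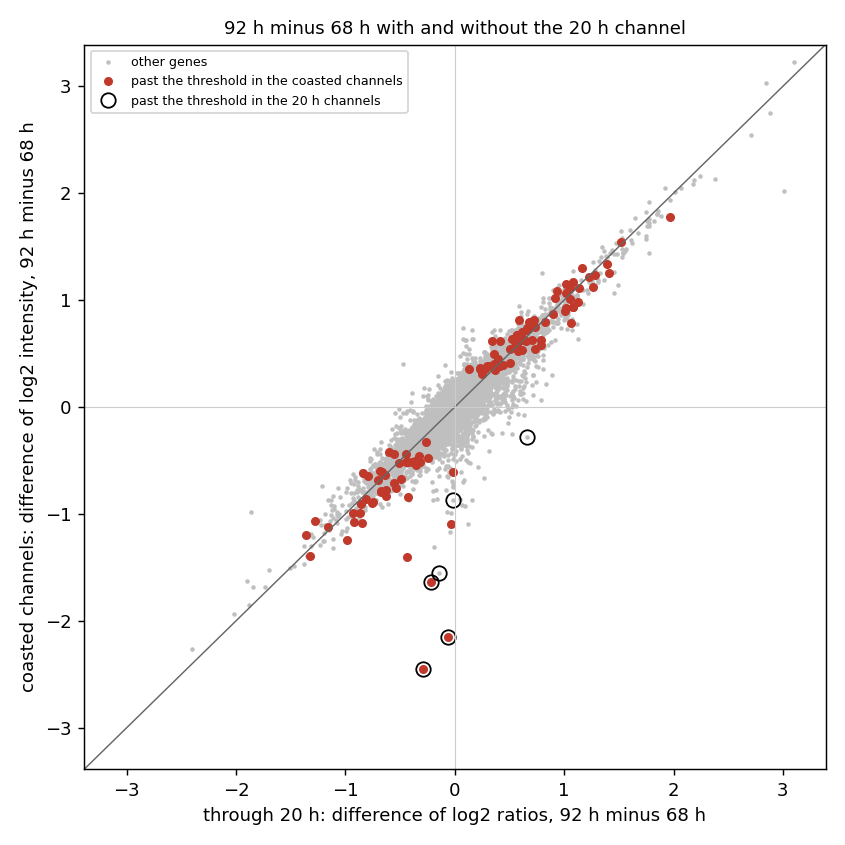
Difference between 92 h and 68 h for 11044 genes, through 20 h (horizontal, log2 ratio) and between coasted channels (vertical, log2 intensity), with the diagonal of equal values. The 111 genes past the threshold in the coasted channels (red) lie along the diagonal or, in a few cases, below it, such as IFRD2 at -2.45, DYM and GOLGA7B, which are circled as also past the threshold between the 20 h channels, and SYNPO2, DUT and TERF2, which are not.

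Probes of one gene often disagreed: 40 of the 111 genes had other kept probes, and in 29 of the 40 every other probe gave less than 50% of the difference of the brightest one through 20 h.

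Only 16 of the 111 belonged to a process list used here, and those named from the rest were chosen after their values were seen. MAN1A1, a Golgi mannosidase, rose most between the coasted channels, from log2 intensities of 12.94, 13.60 and 12.99 at 68 h to 15.05, 15.14 and 14.65 at 92 h (difference 1.77 ± 0.23, limma adjusted p = 0.0448). PDK4, the kinase that shuts down pyruvate dehydrogenase, rose from 8.52, 9.10 and 8.47 to 10.41, 10.31 and 9.98 (1.54 ± 0.21, limma adjusted p = 0.0483). Neither gene overlapped between the times. The other probes of MAN1A1 gave differences through 20 h of 1.44 and 1.80, against 1.97 by the brightest, and that of PDK4 0.24 against 1.52. CDV3 rose by 1.33 ± 0.13 and HECA by 1.25 ± 0.14, but through 20 h the other probes of CDV3 gave 0.10 and 0.40 against 1.39, and that of HECA -0.036 against 1.41. TGFBR3, betaglycan, the co-receptor of TGF-beta and inhibin, rose by 1.23 ± 0.12 (limma adjusted p = 0.0408), and through 20 h it read 1.32, 0.73 and 1.63 at 92 h and -0.48, 0.48 and -0.16 at 68 h, a difference of 1.28 against 0.15 by its other probe.

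Further risen genes follow with the role each is known for. NACA, which guards nascent chains at the ribosome, rose by 1.12 ± 0.13, and EIF2S3, a subunit of initiation factor 2, by 1.07 ± 0.10. RPL36A and RPS12, ribosomal proteins, rose by 0.93 ± 0.10 and 0.87 ± 0.12. UTP6, LTV1, RRP36 and RCL1, factors of ribosome assembly, rose by 0.98 ± 0.11, 0.78 ± 0.10, 0.57 ± 0.057 and 0.67 ± 0.074, and NPM1, nucleophosmin, by 0.54 ± 0.071. HNRNPM and HNRNPH1, RNA-binding splicing factors, rose by 1.09 ± 0.10 and 0.62 ± 0.079. GABARAPL1 and GABARAPL2, which coat autophagosomes, rose by 1.02 ± 0.13 and 0.66 ± 0.089. All of these had limma adjusted p between 0.0408 and 0.0483, close to the threshold. Through 20 h the other probe of UTP6 gave 0.033 against 1.12, those of HNRNPM -0.0061 to 0.016 against 0.93, and those of RPL36A 0.87 and 1.02 against 1.08.

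Of the fallen genes, RAB6B, a Golgi GTPase, went from log2 intensities of 10.74, 11.28 and 10.73 at 68 h to 9.70, 9.43 and 9.44 at 92 h (-1.40 ± 0.17, limma adjusted p = 0.0434). HSPA4L, a chaperone of the HSP110 family, changed by -1.24 ± 0.15. ELAVL1, the mRNA-stabilising protein HuR, fell from 11.11, 11.08 and 10.96 to 9.88, 9.95 and 10.06 (-1.09 ± 0.072, limma adjusted p = 0.0220). PGP, phosphoglycolate phosphatase, differed by -1.08 ± 0.12 and LSM7, of the U6 and mRNA decay ring, by -0.99 ± 0.12. CLIC4 had the smallest standard error of the calls named here, at -0.78 ± 0.041 (limma adjusted p = 0.0184), and PLAC9 read -0.99 ± 0.050. MIS12, DSN1 and CENPL, proteins of the kinetochore that are on no list, read -0.90 ± 0.12, -0.80 ± 0.081 and -0.76 ± 0.053. Through 20 h the other probes gave -0.46 and -0.041 against -1.32 for RAB6B, -0.26 and -0.085 against -0.85 for ELAVL1, -0.24 against -0.87 for PLAC9 and -0.020 against -0.67 for DSN1. For LSM7 the other probe gave -0.87 against -0.94.

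Genes that carry cells through mitosis were lower at 92 h than at 68 h throughout the list. Of 45 listed genes 41 were measured, and all 41 had a difference below 0, against 51.7% of all genes. The median difference was -0.55, against -0.0040 over all genes. Through 20 h 0 passed, 9 had an unadjusted p under 0.05 and 11 had values wholly below those of 68 h (2.06% and 7.08% of all genes). Between the coasted channels 5 passed and fell (0.417% of all genes), and 30 were lower at an unadjusted p under 0.05 against 9.7% of all genes. The list's median difference between the 20 h channels was 0.0015. The list was drawn up with earlier results of these data known.

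The median ratio of the mitosis list over 20 h was -0.93, -1.07 and -1.20 at 92 h and -0.21, -0.83 and -0.25 at 68 h, with -0.45 over the 44 h means. The ratio of 68 h replicate 2 thus lay close to 92 h, and those of replicates 1 and 3 nearer to 0. Replicate 2 differed from the others in both channels: in the 20 h channel it was the highest of the 3 replicates of 68 h for 35 of 41 genes, and in the coasted channel the lowest for 33 of 41. Its array with coasted RNA in Cy5 had only 26.5% of probes above background in the coasted channel, and the bearing of this was not tested. The list's median log2 intensity in the 20 h channel of the 68 h arrays was 10.64, 10.89 and 10.79, and in the coasted channel 10.48, 10.16 and 10.48 at 68 h and 9.91, 9.52 and 9.97 at 92 h. In the coasted channel the medians of all 68 h replicates thus lay above those of all 92 h replicates. Without 68 h replicate 2 the median difference was -0.82, with 18 of 41 at an unadjusted p under 0.05. That count was 3 without 92 h replicate 2, 5 without 92 h replicate 3, 3 without 68 h replicate 1 and 4 without 68 h replicate 3. The count over all 11044 genes, in either direction, moved as well. It was 1010 without 68 h replicate 2 and 351, 739, 395 and 316 in the later settings in the same order, against 656 with all values. Over the 25 alternatives run for the lists the median difference of the mitosis list stayed below 0, from -0.82 to -0.45.

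CKS2, a small subunit that docks on cyclin-dependent kinases, read -0.96, -1.27 and -0.95 at 92 h and 0.0097, -0.43 and 0.23 at 68 h (-0.99 ± 0.20, limma adjusted p = 0.642), and its values did not overlap. CCNA2, cyclin A2, read -1.08, -1.11 and -1.04 at 92 h and -0.15, -0.75 and -0.20 at 68 h (-0.71 ± 0.19), although its second probe gave -0.079. PTTG1, securin, the inhibitor of separase, had the largest difference of the list with -1.57, -1.94 and -1.75 at 92 h and -0.28, -1.08 and -0.41 at 68 h (-1.16 ± 0.32, limma adjusted p = 0.734). For each of these the 68 h replicate nearest to 92 h was replicate 2. KIF11, the motor that pushes spindle poles apart, read -1.19, -1.40 and -1.64 at 92 h and -0.54, -1.28 and -0.39 at 68 h and overlapped with that replicate (-0.67 ± 0.24).

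In the coasted channels KIF11 fell from log2 intensities of 10.81, 10.72 and 10.80 at 68 h to 9.91, 9.84 and 10.21 at 92 h (-0.79 ± 0.11, limma adjusted p = 0.0477). CCNB2, cyclin B2, fell from 11.34, 11.23 and 11.54 to 10.55, 10.32 and 10.54 (-0.90 ± 0.11, limma adjusted p = 0.0408). KIF2C, a microtubule depolymerase of centromeres, differed by -0.86 ± 0.10, KIF20A, a kinesin of cytokinesis, by -0.68 ± 0.079 and PRC1, which bundles the midzone, by -0.64 ± 0.087 (limma adjusted p = 0.0408, 0.0408 and 0.0483). None of these 5 overlapped between the times in the coasted channels. CCNB1, cyclin B1, missed the threshold with -1.19 ± 0.21 (limma adjusted p = 0.0765).

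The median of DNA replication genes was also below 0. Of 42 listed 40 were measured, 32 of them below 0, with a median difference of -0.32. Through 20 h 0 passed, 6 were lower and 1 higher at an unadjusted p under 0.05 (2.06% and 3.88% of all genes). Between the coasted channels 17 were lower at that level (9.7% of all genes) and 1 passed, DUT, the enzyme that removes dUTP, at -1.40 ± 0.12, while its 20 h channels read -0.96 and its other probes gave -0.20 and 0.0044 through 20 h. The median was -0.21 without 92 h replicate 3 and -0.16 without 68 h replicate 1, and in the latter 0 members were lower at an unadjusted p under 0.05.

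PCLAF, which binds the replication clamp PCNA, read -1.89, -1.86 and -1.88 at 92 h and -0.21, -1.59 and -0.48 at 68 h (-1.12 ± 0.36, limma adjusted p = 0.805). Its 92 h values were nearly equal, and 68 h replicate 2 was again the closest to them. RFC5, a clamp loader subunit, read -0.33, -0.050 and -0.24 at 92 h and 0.21, 0.029 and 0.16 at 68 h (-0.34 ± 0.11). UHRF1, which maintains DNA methylation behind the fork, read -0.49, -0.34 and -0.48 at 92 h and 0.068, -0.20 and 0.052 at 68 h (-0.41 ± 0.13). MCM2, a subunit of the replicative helicase, was the 1 member higher at an unadjusted p under 0.05, with 0.79, 0.99 and 0.64 at 92 h and 0.12, 0.30 and -0.11 at 68 h (0.70 ± 0.17, limma adjusted p = 0.657). Its other probes gave differences from -0.083 to 0.18, so the probes of MCM2 disagree.

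Sterol synthesis and uptake genes were lower at 92 h with few exceptions. Of 28 listed 23 were measured, and 22 had a difference below 0, with a median of -0.39. Through 20 h 0 passed, 5 were lower at an unadjusted p under 0.05 and 8 had wholly lower values (2.06% and 7.08% of all genes). Between the coasted channels 2 passed and fell, and 13 were lower and 1 higher at an unadjusted p under 0.05 (9.7% and 9.75% of all genes). The median ratio over 20 h was -0.74, -0.56 and -0.58 at 92 h and 0.13, -0.23 and -0.17 at 68 h. At 68 h these medians were near those of 20 h RNA, and without 68 h replicate 1 the median difference was -0.19.

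Along the pathway, HMGCS1 has been described above. FDPS, which makes farnesyl diphosphate, read -1.37, -1.35 and -1.14 at 92 h and 0.39, -0.14 and -0.012 at 68 h (-1.36 ± 0.33, limma adjusted p = 0.668). In the coasted channels FDPS fell from log2 intensities of 12.93, 12.86 and 12.92 at 68 h to 11.70, 11.39 and 12.01 at 92 h (-1.20 ± 0.16, limma adjusted p = 0.0477). FDFT1, squalene synthase, read -0.66, -0.74 and -0.57 at 92 h and 0.39, 0.17 and 0.10 at 68 h (-0.88 ± 0.35), and SQLE, squalene epoxidase, -1.84, -1.35 and -0.80 at 92 h and 0.13, -0.76 and -1.08 at 68 h (-0.76 ± 0.38). Of these SQLE alone overlapped between the times.

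Downstream of squalene, MSMO1, which removes methyl groups from the sterol ring, read -2.14, -1.99 and -1.77 at 92 h and 0.68, -1.32 and -0.17 at 68 h (-1.70 ± 0.49, limma adjusted p = 0.761). Its 3 values at 92 h lay close together, and 68 h replicate 2 was the nearest to them. CYP51A1, lanosterol demethylase, read -1.52, -0.84 and -1.28 at 92 h and 0.57, -0.30 and -0.69 at 68 h (-1.08 ± 0.44). NSDHL, the next dehydrogenase, read -1.11, -0.71 and -1.11 at 92 h and 0.67, 0.041 and 0.20 at 68 h (-1.28 ± 0.65), and in the coasted channels it fell (-1.07 ± 0.12, limma adjusted p = 0.0408). INSIG1, a sterol sensor that restrains the pathway, read -1.75, -1.19 and -2.42 at 92 h and 0.032, -2.21 and -1.85 at 68 h and overlapped widely. Secondary probes gave smaller differences, from -0.92 to -0.15 for FDPS, and as near to 0 as -0.11 for MSMO1 and -0.064 for FDFT1.

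**Figure D4:**
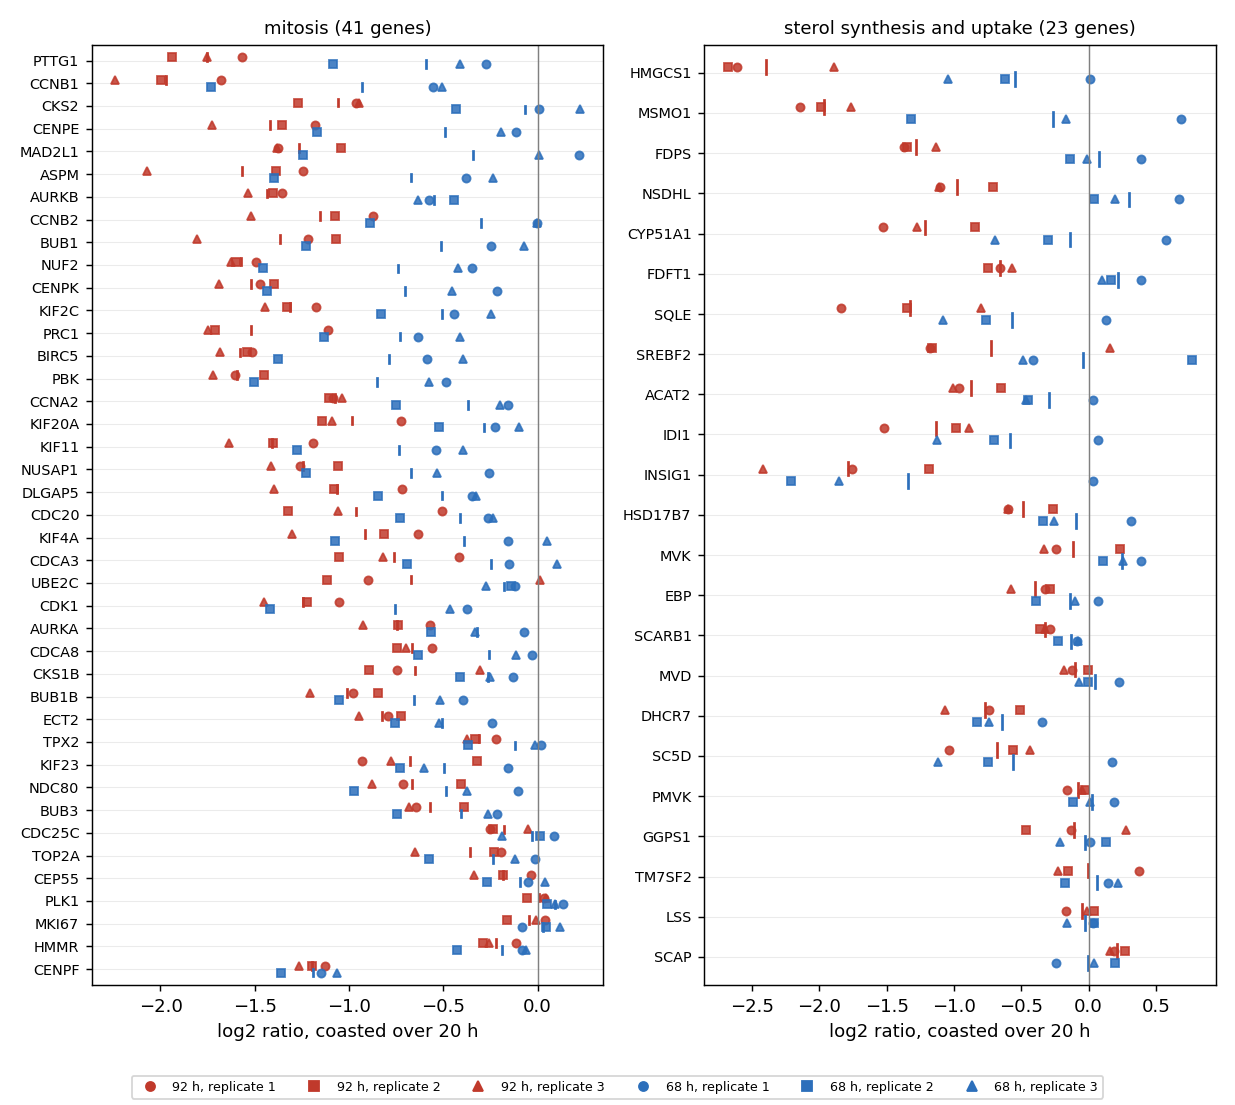
Log2 ratio of coasted over 20 h in each replicate of 92 h (red) and 68 h (blue) for the 41 measured mitosis genes and the 23 measured sterol genes, sorted by difference, with a bar at each mean of 3. In the mitosis list the red bars lie left of the blue ones for every gene, and in genes such as CCNB1 and CDK1 the blue square of 68 h replicate 2 lies among or beside the red symbols.

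The 3 lists of energy metabolism also had medians below 0. Glycolysis and lactate transport had a median difference of -0.41 over 21 genes, 17 of them below 0. Of the 21, 2 were lower at an unadjusted p under 0.05 and 5 wholly lower (2.06% and 7.08% of all genes). Between the coasted channels 8 were lower and 1 higher at that level (9.7% and 9.75% of all genes). In either comparison 0 passed the threshold. PGAM1, phosphoglycerate mutase, read -1.07, -1.01 and -0.76 at 92 h and -0.41, -0.77 and -0.28 at 68 h (-0.46 ± 0.16), and SLC16A1, a lactate and pyruvate carrier, -1.45, -0.97 and -0.96 at 92 h and -0.14, -0.70 and -0.75 at 68 h (-0.60 ± 0.22). SLC16A3, a lactate exporter, read -1.61, -1.64 and -1.84 at 92 h and -0.0074, -1.10 and -0.31 at 68 h, with every 92 h value below every 68 h value. LDHA, lactate dehydrogenase A, read -0.95, -0.93 and -1.09 at 92 h and -0.25, -1.08 and -0.039 at 68 h and overlapped in replicate 2 of 68 h.

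Oxidative phosphorylation genes had a median difference of -0.24 over 32 genes, with 25 below 0, and -0.13 without 68 h replicate 3. At an unadjusted p under 0.05, 1 was lower and 1 higher through 20 h (2.06% and 3.88% of all genes). Between the coasted channels 9 were lower and 3 higher at that level (9.7% and 9.75% of all genes), and 0 passed. COX5B, of cytochrome oxidase, read -0.10, -0.37 and -0.10 at 92 h and 0.31, 0.13 and 0.46 at 68 h (-0.49 ± 0.11) and its 20 h channels differed by 0.28 between the array sets. ATP5PB, of ATP synthase, was higher by its brightest probe with -0.16, -0.37 and 0.041 at 92 h and -0.77, -0.45 and -0.78 at 68 h (0.50 ± 0.18), and its other probe gave -0.031.

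In the fatty acid list of 24 measured genes the median difference was -0.18, with 3 lower and 2 higher at an unadjusted p under 0.05 (2.06% and 3.88% of all genes), and from -0.33 to -0.11 without 68 h replicate 2 or 3. ACADL, a mitochondrial acyl-CoA dehydrogenase, read -0.53, -0.80 and -0.65 at 92 h and -0.13, -0.38 and -0.16 at 68 h (-0.44 ± 0.10, limma adjusted p = 0.642). HADHB, of the trifunctional beta-oxidation enzyme, read -0.71, -0.86 and -1.10 at 92 h and -0.39, -0.49 and -0.15 at 68 h (-0.55 ± 0.19), and FABP3, a fatty acid carrier, -0.76, -0.93 and -0.15 at 92 h and 0.035, 0.10 and -0.033 at 68 h (-0.65 ± 0.21). PLIN2, the coat protein of lipid droplets, was higher with 0.96, 1.24 and 1.0 at 92 h and 0.24, 0.67 and -0.47 at 68 h (0.92 ± 0.32). Between the coasted channels 8 members were lower and 1 higher at an unadjusted p under 0.05 (9.7% and 9.75% of all genes). FADS2, a desaturase of polyunsaturated fatty acids, fell past the threshold there (-1.13 ± 0.14, limma adjusted p = 0.0416).

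Immediate early genes, transcribed within minutes of many stimuli, lay on the opposite side. Of 36 listed 29 were measured, 27 with a difference above 0 and a median of 0.44, the highest of the 34 lists. Through 20 h 0 passed, 3 were higher at an unadjusted p under 0.05 and 6 wholly higher (3.88% and 8.19% of all genes). Between the coasted channels 13 were higher at an unadjusted p under 0.05 (9.75% of all genes) and 1 passed, the stress factor gene ATF3 (0.90 ± 0.086, limma adjusted p = 0.0408). The median was 0.29 without 68 h replicate 3, with 0 members then at an unadjusted p under 0.05.

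MYC, a driver of growth and ribosome production, read 1.18, 1.84 and 1.56 at 92 h and 0.53, 0.83 and 0.53 at 68 h (0.89 ± 0.29, limma adjusted p = 0.806), and its groups did not overlap. CCN1, a matricellular protein, read -0.026, 0.94 and 0.21 at 92 h and -0.19, -1.01 and -0.76 at 68 h (1.03 ± 0.38), DUSP6, a phosphatase of ERK, 0.78, 0.55 and 0.86 at 92 h and 0.26, 0.62 and -0.011 at 68 h (0.44 ± 0.16) and ZFP36, which speeds decay of AU-rich mRNAs, 0.71, 0.30 and 0.62 at 92 h and 0.13, 0.10 and -0.16 at 68 h (0.52 ± 0.23).

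VNN1, the pantetheinase that releases cysteamine, read 4.19, 4.05 and 3.03 at 92 h and 0.97, 1.73 and 0.023 at 68 h, a difference of 2.85 ± 0.69 (limma adjusted p = 0.653). In the coasted channels its log2 intensities were 12.80, 13.71 and 11.68 at 92 h and 10.47, 10.28 and 8.35 at 68 h, so both groups stood apart, but the limma adjusted p was 0.125. VNN2, a related pantetheinase, lay below 20 h at both times, with -0.70, -0.40 and -0.61 at 92 h and -1.01, -1.64 and -0.83 at 68 h (0.59 ± 0.21). GPX4, which reduces lipid peroxides, read -1.97, -2.29 and -1.70 at 92 h and 0.018, -0.80 and 0.86 at 68 h (-2.02 ± 0.80) and MT2A, a metallothionein, 0.55, 0.64 and 0.22 at 92 h and -0.12, 0.040 and 0.16 at 68 h (0.44 ± 0.12). Over the 30 measured vanin, glutathione and antioxidant genes the median was -0.034, with 3 higher and 1 lower at an unadjusted p under 0.05 (3.88% and 2.06% of all genes).

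Among 24 measured genes of amino acid and creatine metabolism 4 were higher and 0 lower at an unadjusted p under 0.05 (3.88% and 2.06% of all genes), with a median of 0.12 (0.054 without 92 h replicate 2). GATM, which makes the creatine precursor guanidinoacetate, read 2.36, 3.48 and 2.05 at 92 h and 0.91, 1.09 and 0.21 at 68 h (1.89 ± 0.64). ASNS, asparagine synthetase, read 1.98, 2.26 and 1.49 at 92 h and 0.76, 0.73 and 0.20 at 68 h (1.35 ± 0.41, limma adjusted p = 0.767), and in the coasted channels it just missed the threshold (1.5 ± 0.21, limma adjusted p = 0.0536). ODC1, ornithine decarboxylase of polyamine synthesis, read 0.049, 0.063 and 0.37 at 92 h and -0.55, -0.14 and -0.66 at 68 h (0.61 ± 0.15) and rose between the coasted channels (0.63 ± 0.069, limma adjusted p = 0.0408). GLUL, glutamine synthetase, read 0.96, 1.36 and -0.94 at 92 h and -0.66, -1.46 and -1.33 at 68 h and overlapped through 92 h replicate 3.

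Protein folding and stress lists each held a single coasted-channel call. HERPUD1, of the degradation machinery of the endoplasmic reticulum, read 0.48, 0.39 and 1.10 at 92 h and -0.70, 0.18 and -0.75 at 68 h (1.08 ± 0.31) and rose from log2 intensities of 9.60, 9.94 and 9.55 at 68 h to 10.92, 10.72 and 10.97 at 92 h in the coasted channels (1.17 ± 0.13, limma adjusted p = 0.0408). HSPA5, the chaperone BiP, read -0.14, 0.99 and 0.092 at 92 h and -0.44, -0.94 and -0.82 at 68 h (1.05 ± 0.38). Both are on the unfolded protein list, with 22 measured, 2 higher at an unadjusted p under 0.05 (3.88% of all genes) and a median of 0.082. HSPA4, an HSP110 chaperone, read 0.28, 0.91 and 1.47 at 92 h and -0.69, 0.61 and -0.94 at 68 h and rose between the coasted channels (1.21 ± 0.13, limma adjusted p = 0.0408). BAG3, a co-chaperone of selective autophagy, read 0.75, 0.51 and 0.71 at 92 h and -0.30, 0.18 and -0.38 at 68 h (0.83 ± 0.22). The heat shock list had a median of 0.18 over 20 genes, and 0.0077 without 68 h replicate 2.

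Cytosolic ribosomal protein genes, 32 measured, had a median of 0.10. With median centring it was -0.081, the 1 of 25 alternatives in which it fell below 0. Through 20 h 2 were higher at an unadjusted p under 0.05 (3.88% of all genes), RPS12 (0.85, 1.14 and 1.12 at 92 h and 0.12, 0.54 and -0.25 at 68 h) and RPS18 (0.72, 0.68 and 1.56 at 92 h and -0.43, 0.59 and 0.021 at 68 h). Between the coasted channels 10 were higher and 1 lower at an unadjusted p under 0.05 (9.75% and 9.7% of all genes). RPS12 and RPS3A rose past the threshold there (0.589% of all genes). RPS14 was wholly lower, with -0.25, -0.34 and -0.30 at 92 h and 0.10, -0.073 and 0.43 at 68 h. Ribosomal protein probes can share sequence with processed pseudogenes, so single members are uncertain.

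Gonadotropin-dependent genes of the granulosa lineage gave no call in either comparison, and their median through 20 h rested largely on 1 replicate. Of 25 listed 23 were measured, 17 below 0, with a median difference of -0.27 and 0 at an unadjusted p under 0.05 through 20 h. Values were wholly lower in 4 and wholly higher in 1 (7.08% and 8.19% of all genes). The median through 20 h was -0.022 without 92 h replicate 2, -0.16 without 92 h replicate 1 and -0.12 without 68 h replicate 2. Between the coasted channels 7 were lower and 2 higher at an unadjusted p under 0.05 (9.7% and 9.75% of all genes), with a median of -0.17. CYP19A1, the aromatase, read -1.05, -2.88 and 0.69 at 92 h and -1.80, 0.73 and -0.12 at 68 h. INHBA, a subunit of inhibin A and activin A, read -0.62, -3.07 and 0.30 at 92 h and -0.50, 1.63 and 1.07 at 68 h. In both, 92 h replicate 2 was the lowest of the 6 values.

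INHBB, the other beta subunit, read -0.98, -3.91 and 0.75 at 92 h and -0.38, 2.12 and 1.33 at 68 h, and FST, follistatin, the binder of activin, -0.65, -2.16 and 1.26 at 92 h and -1.01, 1.34 and -0.48 at 68 h. INHA, the alpha subunit, read -0.49, -1.75 and -0.33 at 92 h and -0.68, -0.35 and -0.12 at 68 h, and FSHR, the FSH receptor, 0.035, -0.93 and -0.0089 at 92 h and -0.11, -0.027 and 0.049 at 68 h. LRP8, a receptor of lipoproteins and reelin, read -1.60, -3.84 and -0.77 at 92 h and -0.81, 0.22 and 0.087 at 68 h. In the coasted channels INHBB had log2 intensities of 10.55, 9.27 and 10.75 at 92 h and 12.39, 12.11 and 12.85 at 68 h. Those of LRP8 were 11.65, 10.42 and 11.50 at 92 h and 13.08, 12.27 and 13.10 at 68 h. For INHBB and LRP8 every 92 h level thus lay below every 68 h level, although neither gene passed the threshold. The coasted levels of CCND2 and INHBA, given next, overlapped between the times. CCND2, the cyclin of granulosa proliferation, read 0.046, -0.47 and 2.14 at 92 h and -0.11, 2.44 and 0.63 at 68 h, with the high values in 92 h replicate 3 and 68 h replicate 2. For CCND2 the 20 h channels were low on exactly these arrays (13.68, 14.04 and 11.87 and 13.96, 11.76 and 13.54), while the coasted channels spanned only 13.73, 13.57 and 14.01 at 92 h and 13.85, 14.20 and 14.17 at 68 h. The coasted INHBA levels were 14.52, 12.16 and 15.12 at 92 h and 14.42, 15.13 and 15.20 at 68 h, again lowest in 92 h replicate 2, while its 20 h channels differed by 0.88 between the array sets.

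Steroid synthesis genes, 21 measured, had a median of -0.047, with 1 lower at an unadjusted p under 0.05 (2.06% of all genes). That gene was HSD3B1, which converts pregnenolone to progesterone, with -1.23, -1.19 and -1.19 at 92 h and -0.35, -0.57 and -0.027 at 68 h (-0.89 ± 0.29, limma adjusted p = 0.806). Its 92 h values were nearly identical and below every 68 h value. CYP11A1, the side-chain cleavage enzyme, read -0.63, -2.01 and -2.68 at 92 h and -1.13, -2.19 and 0.38 at 68 h and STAR, which feeds it cholesterol, 0.10, 0.10 and -0.20 at 92 h and -0.27, -0.025 and 0.18 at 68 h, and both overlapped between the times.

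Of 21 listed cumulus expansion genes 16 were measured, 10 with a difference above 0 and 6 below, and the median was 0.060. Through 20 h 1 was higher at an unadjusted p under 0.05 (3.88% of all genes), between the coasted channels 0 were, and 0 passed in either comparison. TNFAIP6, which crosslinks hyaluronan, read 1.06, 4.39 and -0.056 at 92 h and -0.85, 0.052 and -0.016 at 68 h, PTX3, a pentraxin of the matrix, 0.64, 4.67 and -0.052 at 92 h and -0.22, -0.044 and -0.023 at 68 h and HAS2, hyaluronan synthase, 0.21, 0.92 and 0.012 at 92 h and -0.031, -0.024 and -0.091 at 68 h. In these 3 genes 92 h replicate 2 stood above all others, followed by 92 h replicate 1. BMP2 followed the same order with 1.63, 3.15 and 0.086 at 92 h and -0.38, -0.017 and -0.083 at 68 h (1.78 ± 0.69, limma adjusted p = 0.817). GREM1, a BMP antagonist, read 0.000078, 0.033 and -0.037 at 92 h and 0.00041, 0.064 and 0.024 at 68 h. Only 1 of the 16 measured expansion genes was above background on all arrays of 92 h and 68 h. The median log2 intensity of the list was 7.98. For genes this dim, a ratio near 0 cannot tell an unchanged level from a lack of signal. The same limit holds for the list median. PTGS2, AREG, LHCGR and IGFBP5 had probes that did not pass the filter on dim signal.

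92 h replicate 2 also held the highest value of several matrix and protease genes. THBS1, a matricellular thrombospondin, read 1.25, 3.31 and 1.22 at 92 h and 0.14, 0.66 and -0.92 at 68 h (1.97 ± 0.75), PLAT, tissue plasminogen activator, 0.68, 3.69 and 0.0021 at 92 h and -0.42, -0.022 and -0.058 at 68 h, and ADAMTS1, a protease of the expanding matrix, 0.48, 2.37 and 0.053 at 92 h and 0.19, -0.0015 and -0.40 at 68 h. COL3A1, a fibrillar collagen, read 0.054, 2.78 and -0.028 at 92 h and -0.12, -0.0088 and -0.065 at 68 h, and CLDN11, a tight junction protein, 1.61, 4.89 and 0.062 at 92 h and -0.20, 0.22 and 0.0063 at 68 h. LRRC17, a secreted leucine-rich protein, was higher in all 3 values with 1.32, 2.69 and 1.06 at 92 h and 0.50, 0.14 and -0.23 at 68 h (1.55 ± 0.43, limma adjusted p = 0.735). CRISPLD2, a secreted protein of the matrix, was lower in all 3 with -2.48, -3.13 and -1.62 at 92 h and -0.14, -1.18 and -0.27 at 68 h (-1.88 ± 0.43, limma adjusted p = 0.642), and its other probes gave from -1.32 to -0.16. The extracellular matrix list had a median of 0.21 over 26 genes, and 0.049 without 92 h replicate 2. The protease list had a median of 0.15 over 24 genes, with 0 at an unadjusted p under 0.05.

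Genes of the LH and EGF response and its C/EBP factors had a median of 0.0026 over 15 measured, with 3 higher and 2 lower at an unadjusted p under 0.05 (3.88% and 2.06% of all genes). CEBPD, a C/EBP transcription factor gene, read 2.44, 2.78 and 2.26 at 92 h and 0.63, 2.07 and 0.22 at 68 h (1.52 ± 0.55, limma adjusted p = 0.812), where 68 h replicate 2 came close to the 92 h values. PGR, the progesterone receptor, was lower with -0.56, -0.68 and -0.49 at 92 h and 0.17, -0.18 and 0.43 at 68 h (-0.72 ± 0.21, limma adjusted p = 0.759). BTC, an EGF-like ligand, read -0.19, -0.42 and 0.0063 at 92 h and 0.66, 0.063 and 0.23 at 68 h, ERBB3, a receptor of the EGF family, 0.81, 0.53 and 0.71 at 92 h and 0.49, 0.36 and 0.37 at 68 h and RGS2, a brake on G protein signalling, 0.88, 1.09 and 0.044 at 92 h and 0.0076, 0.038 and 0.081 at 68 h.

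Signalling lists held several members with non-overlapping values and no call through 20 h. In the IGF system, 12 measured, 4 were higher and 0 lower at an unadjusted p under 0.05 (3.88% and 2.06% of all genes). The median was 0.20, with 7 above 0 and 5 below. Values were wholly higher in 4 and wholly lower in 2 (8.19% and 7.08% of all genes). The wholly lower ones were IGFBP4, an IGF binder, at -0.13, and IGF1, the growth factor, at -0.060. INSR, the insulin receptor, read 0.65, 0.81 and 0.76 at 92 h and -0.23, 0.36 and -0.060 at 68 h (0.72 ± 0.18, limma adjusted p = 0.697), and its 20 h channels differed by -0.41 between the array sets. STC1, a stanniocalcin that binds IGF-axis proteases, read 1.54, 3.14 and 0.48 at 92 h and -0.26, -0.082 and -0.53 at 68 h and IGFBP3, the main serum IGF binder, 1.06, 1.97 and 0.026 at 92 h and -0.073, 0.063 and -0.068 at 68 h, both highest in 92 h replicate 2. In the TGF-beta list, 24 measured, the median was 0.15 and 3 were higher at an unadjusted p under 0.05 (3.88% of all genes): TGFBR3, BMP2 and ACVR2A, an activin receptor (0.24, 0.40 and 0.31 at 92 h and 0.12, 0.14 and -0.11 at 68 h).

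In the inflammation and IL6 list, 20 measured, 5 were higher and 1 lower at an unadjusted p under 0.05 (3.88% and 2.06% of all genes), 7 were wholly higher (8.19% of all genes), and the median was 0.063. CXCR4, a chemokine receptor, read 1.79, 1.82 and 0.68 at 92 h and -0.053, 0.53 and -0.16 at 68 h (1.33 ± 0.39, limma adjusted p = 0.765). OSMR, a partner of IL6ST, read 0.29, 0.58 and 0.060 at 92 h and -0.075, -0.076 and -0.019 at 68 h (0.37 ± 0.12), and NFKBIA, the inhibitor of NF-kappa-B, 2.67, 1.33 and 1.09 at 92 h and -0.33, 1.03 and 0.29 at 68 h (1.37 ± 0.57). CXCL2, a chemokine, read 1.01, 0.042 and -0.15 at 92 h and -0.81, -1.0 and -0.51 at 68 h, and its 20 h channels differed by -0.35. SOCS2, a suppressor of cytokine signalling, was lower with -0.34, -0.77 and -0.96 at 92 h and 0.38, -0.48 and 0.36 at 68 h and overlapped.

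In the apoptosis and atresia list, 23 measured, 4 were higher and 0 lower at an unadjusted p under 0.05 (3.88% and 2.06% of all genes), and the median was 0.11 (0.017 without 92 h replicate 2). GADD45A, a DNA damage response gene, read 0.91, 2.80 and 0.80 at 92 h and -0.94, -0.52 and -2.67 at 68 h (2.88 ± 1.01), with a second probe at 0.063. CLU, clusterin, an extracellular chaperone, read 1.86, 3.83 and 0.74 at 92 h and 0.094, 0.020 and -0.23 at 68 h (2.18 ± 0.71). CASP6, an effector caspase, read 0.35, 0.61 and 0.13 at 92 h and -0.080, -0.26 and -0.23 at 68 h (0.56 ± 0.17, limma adjusted p = 0.765), and APAF1, of the apoptosome, 0.60, 0.85 and 0.27 at 92 h and 0.16, -0.081 and 0.049 at 68 h (0.53 ± 0.21).

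The Wnt and Notch list, 21 measured, had 4 higher and 1 lower at an unadjusted p under 0.05 (3.88% and 2.06% of all genes) and a median of 0.14. SFRP1, a secreted Wnt antagonist, read 0.95, 1.43 and 0.15 at 92 h and -0.053, -0.21 and -0.14 at 68 h (0.97 ± 0.31), JAG1, a Notch ligand, 1.14, 2.99 and 0.16 at 92 h and -0.17, -0.067 and -0.073 at 68 h and FZD1, a Wnt receptor, -0.39, -0.67 and -0.41 at 92 h and 0.16, -0.28 and 0.062 at 68 h. Hypoxia genes, 25 measured, had a median of -0.24, from -0.40 without 92 h replicate 3 to -0.15 without 92 h replicate 2. BNIP3L, of mitophagy, read -0.27, -0.63 and -0.41 at 92 h and 0.20, -0.11 and 0.20 at 68 h (-0.53 ± 0.16) and NDRG1 read 0.29, 0.94 and 0.42 at 92 h and -0.30, 0.089 and -0.55 at 68 h (0.80 ± 0.29). Angiogenesis genes (22 measured) had a median of 0.0091. NRP1, a VEGF co-receptor, read 2.33, 1.36 and 2.05 at 92 h and 0.22, 1.53 and 1.16 at 68 h, ANGPT2, angiopoietin 2, 1.20, 1.18 and 1.83 at 92 h and 0.89, 1.49 and 0.23 at 68 h and PGF, placental growth factor, -1.53, -1.75 and -2.52 at 92 h and -0.27, -1.82 and -0.32 at 68 h, all overlapping between the times.

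Gap junction and projection genes, 19 measured, had a median of -0.0074, with 1 higher and 1 lower at an unadjusted p under 0.05 (3.88% and 2.06% of all genes). DIAPH3, a formin that builds actin filaments, read -0.87, -0.88 and -0.98 at 92 h and -0.34, -0.76 and -0.51 at 68 h (-0.38 ± 0.14), with 0.22 between the 20 h channels. CDH2, N-cadherin, read 1.82, 3.08 and 0.59 at 92 h and 0.48, 0.51 and 0.21 at 68 h (1.43 ± 0.60), FSCN1, an actin bundler of projections, 1.0, 2.15 and 0.68 at 92 h and 0.12, 0.66 and -0.24 at 68 h and GJA1, connexin 43, 0.018, -0.11 and 0.96 at 92 h and -0.020, 0.69 and 0.16 at 68 h.

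Interferon response genes gave no call, and the 20 h levels of RSAD2 and ISG15 among them are given above. Of 19 measured 0 had an unadjusted p under 0.05 through 20 h. The list's median ratio was 0.40, -0.52 and 0.034 at 92 h and -1.19, 0.070 and 0.11 at 68 h. The low values are those of 92 h replicate 2 and 68 h replicate 1. The median difference was 0.11, and it ran from -0.20 without 68 h replicate 1 to 0.48 without 92 h replicate 2. STAT2, a transducer of the interferon signal, read 0.88, 0.35 and 0.58 at 92 h and -0.31, 0.43 and 0.51 at 68 h, IRF7, an interferon regulatory factor, 1.82, -0.52 and -0.066 at 92 h and -1.54, 0.46 and 0.83 at 68 h, CXCL10, an induced chemokine, 0.61, -0.24 and 0.15 at 92 h and -0.34, 0.018 and 0.15 at 68 h and UBA7, the ISG15-activating enzyme, 1.08, -0.45 and 0.26 at 92 h and -1.80, 0.64 and 0.39 at 68 h.

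Markers of the labelled cell type and of other cell types were followed as summed levels, which compare the times within a list but not the lists, since probes differ in brightness. For 19 granulosa and cumulus markers measured the mean log2 intensity of the coasted channel ranged from 10.88 to 11.04 over the 92 h replicates and from 10.91 to 11.07 over those of 68 h, and 13 were above background on all 6 arrays of either time. Theca and smooth muscle markers (16) ranged from 9.62 to 9.94 and from 9.55 to 9.73, with 10 and 8 above background on all arrays. Luteal markers (8) ranged from 9.08 to 9.17 and from 9.15 to 9.43, with 6 and 3 above background on all arrays. Leukocyte markers (11) lay between 8.16 and 8.46 for 92 h and between 8.04 and 8.11 for 68 h, with 4 and 2 above background on all arrays. Endothelial (9), erythrocyte (6) and oocyte (10) markers stayed between 7.94 and 8.24 at both times. On all arrays of 92 h and of 68 h, 3 and 0 endothelial, 0 and 0 erythrocyte and 4 and 1 oocyte markers were above background.

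The median difference of the 7 marker lists ranged from -0.10 to 0.07, and 0 of their members passed in either comparison. MYH11 and PDGFRA, a receptor of platelet-derived growth factor on stromal cells (1.83, 2.14 and 1.01 at 92 h and 0.14, 1.22 and 0.59 at 68 h), were the members of the theca list higher at an unadjusted p under 0.05. CXCR4 was that of the leukocyte list, where CD68, a lysosomal protein of macrophages, read 1.27, 1.18 and 0.34 at 92 h and 0.50, 0.15 and 0.42 at 68 h and the defining marker PTPRC 0.056, 0.11 and -0.0054 at 92 h and -0.16, -0.079 and -0.10 at 68 h. SLC4A1, an erythrocyte anion exchanger, read 0.10, 0.18 and 0.073 at 92 h and 0.022, -0.037 and 0.019 at 68 h, and H1-8, an oocyte linker histone, 0.051, -0.017 and 0.095 at 92 h and -0.11, -0.12 and -0.10 at 68 h. Other members went the other way. The theca list had 10 members above 0 and 6 below, 2 wholly higher and 2 wholly lower (8.19% and 7.08% of all genes). Its member TPM2 was lower, with differences from -0.98 to -0.48 over 25 alternatives. The leukocyte list had 5 members above 0 and 6 below, and the oocyte list 3 above and 7 below. INSL3 of theca cells, CDH5 of endothelium and DDX4 of germ cells gave -0.094, -0.012 and 0.048. AMHR2, the receptor of anti-Müllerian hormone, was not well above background on any 92 h array. Its mean log2 intensity of 8.06 at 68 h was itself close to the upper bound of 7.90 set for 92 h. By these means it was at least 1.12-fold higher at 68 h, a bound without spread or test. The part of other cell types in the differences above was not tested.

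**Figure D5:**
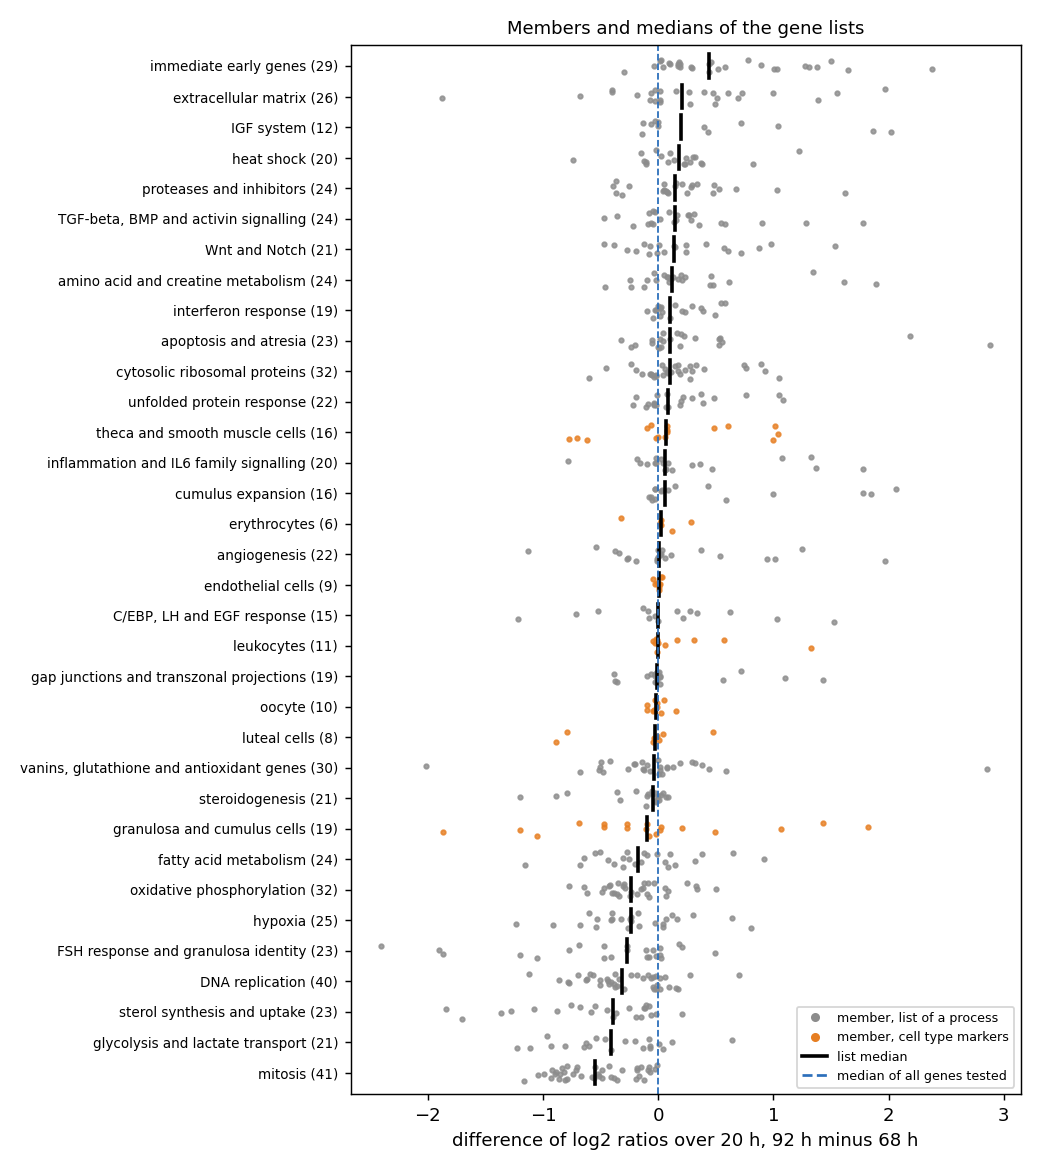
Difference between 92 h and 68 h through 20 h for the members of 34 gene lists, as points, with the list median as a black bar, the median of all 11044 genes as a dashed line and the number measured in brackets. Lists are sorted by median, from mitosis at -0.55 to immediate early genes at 0.44, and the cell type markers (orange) have medians from -0.10 to 0.07.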

How the data were processed

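Transcripts of bovine cumulus cells were measured on Agilent slides read in both dyes. Per the labels' protocols, RNA was amplified in 2 rounds and labelled with Cy3 or Cy5 without an enzyme. The deposited scanner files hold, per the file headers, the mean raw intensity and local background intensity of each spot in both channels, with no normalization. A deposited table of log2 ratios by the authors was used as an alternative only. Its values followed the ratios computed here with slopes from 0.98 to 1.22 and medians from -0.036 to 0.022, and how the authors normalized it is not given in the sources used here. 

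In limma 3.58.1 (R 4.3.3) background was corrected with normexp (offset 50) and each array was normalized by loess, in which control spots counted with weight 0. All ratios were expressed as coasted relative to 20 h, and the mean of both dye orientations stood for a replicate. Probes were kept if they exceeded the negative controls by 2 SD on 50% of the arrays of a group, which left 27381 of 43794. Of the kept probes 12635 had no gene name in the platform annotation, and the others gave 11044 genes, each represented by its brightest probe. The model held 9 values, 3 for each of 92, 68 and 44 h over 20 h, and 44 h entered only the estimate of spread. Single channels were compared directly after Aquantile, which equalizes the distribution of the mean log2 intensity of both channels across arrays and leaves the ratios unchanged. P-values were adjusted by Benjamini-Hochberg over all genes, with a threshold of 0.05.

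Genes were named by rule: 12 of smallest p in each direction with non-overlapping values, up to 4 members of smallest p of each list, and 24 follicular genes. Others were chosen after their values were seen: all further genes given for the coasted and 20 h channels, those by which single replicates stand apart, and TMSB4X, SQLE, NSDHL, INSIG1, PLAT, COL3A1, CLDN11, INHBB, LRP8, CCNB1, RGS2, SOCS2, CYP51A1, NFKBIA, IGFBP4 and IGF1. The comparison and the gene lists were chosen with earlier results of these data known. The number of arrays limits the precision. No sequence tables were used, so no probe sequence or genome position is given.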

Additional observations from a re-analysis of the deposited data

Results flagged for a closer look

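The array of 68 h replicate 2 with coasted RNA in Cy5 had the fewest probes above background in its coasted channel, 26.5%. The nearest of the 6 arrays of 68 h had 52.0% and the highest 66.2%. The gap to the nearest was 0.642 of the whole range. Shares of 8 groups of 6 arrays were looked at in this way, and chance marks about 1 group in 20.

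Among 12635 kept probes without a gene name, 8 passed the threshold between the coasted channels of 92 h and 68 h, 2 higher and 6 lower (limma, adjusted over all 27381 kept probes), and 0 passed between the 20 h channels of the same arrays. Through 20 h 0 of them passed.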

How the results depend on the processing

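Through 20 h the count of genes past the threshold was 0, and it was 111 for the coasted channels directly. With slide as a random block it was 2328 (1290 higher, 1038 lower). That fit takes the dye-swapped arrays of a replicate as separate values, which are not independent samples. The correlation it fitted between arrays of a slide was -0.239. Its count therefore cannot be set beside the others. Leaving out a replicate gave from 0 to 1 through 20 h. With a replicate block the count through 20 h stayed 0, and the smallest limma adjusted p was 0.0826. The labels do not say whether equal replicate numbers pair the samples, and same-numbered deviations correlated at -0.088, -0.333 and -0.346. A weaker or stronger effect is therefore not read from the block. The other alternatives gave 0 as well. The alternatives that follow for single channels, and the deposited table without 44 h, were chosen after seeing the data. The 111 coasted-channel calls became 5 with median centring, 27 with a trended robust prior, 196 from Cy3 alone, 52 from Cy5 alone and 0 with a replicate block, and leaving out a replicate gave from 0 to 85. The 6 calls between 20 h channels became 2, 3, 2, 0 and 0 in the same order, and leaving out a replicate gave from 0 to 2. The cause was not tested. Signal over background limits the dim cell type and expansion genes, of which LHCGR, PTGS2, AREG and IGFBP5 were not kept.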
